A study of Mus musculus with 12 samples.

Results

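Dexamethasone-strengthened peaks are sites of accessible chromatin that were open in untreated cells and became more open after dexamethasone (Dex), a synthetic glucocorticoid. They were chosen from wild-type (WT) libraries alone. A peak was kept where the mean of the 3 WT control libraries was at least 5 CPM (the peak's count scaled by the total count over all peaks of that library), the mean of the 3 WT Dex libraries was at least 1.5 times that mean, and the lowest WT Dex library lay above the highest WT control library. The rule found 263 of 222105 peaks (0.118%), which were 0.632% of the 41595 peaks that met the level alone, here called open peaks. Only 1 further peak met the level and the fold but had overlapping libraries. The libraries from cKO cells, in which the receptor for glucocorticoids was conditionally knocked out, had no part in the choice, so the test below concerns Dex in cKO cells. Every WT value is a description.

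The assay was ATAC-seq, in which a transposase cuts accessible DNA and the fragments are counted by position, in cultured mouse T cells on the C57/B6 background. The 4 groups of 3 libraries were WT cells with Dex, WT cells without it, cKO cells with Dex and cKO cells without it. In all of them, naive CD4+ T cells that came from spleen and draining lymph nodes had been driven in vitro to the homeostatic Th17 state (Th17Hom), and the Dex groups then received Dex for 2 days. Each library was made from 6000 sorted cells and 16 PCR cycles. The Cre driver of the cKO, the deleted part of the receptor gene and the number of animals were not given in the sources used here.

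Glucocorticoids enter the cell and bind the glucocorticoid receptor, a transcription factor encoded by Nr3c1, which then moves to the nucleus. The receptor binds paired or single short DNA motifs, often at enhancers that other factors have already made accessible, and recruits coactivators or corepressors there. In T cells it is known for restraining inflammatory cytokines, for promoting apoptosis of thymocytes, and for raising genes such as Cxcr4, Il7r and Klf9.

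The total count ran between 12988437 and 25081591 per library. The strongest 10% of peaks took 60.8 to 63.5% of the counts in WT Dex libraries and 60.6 to 62.0% in WT control libraries, against 58.1 to 61.6% in cKO Dex and 57.9 to 60.4% in cKO control libraries. All 10 T cell identity genes examined had at least 1 open peak, against 4 of 10 B cell, 6 of 10 CD8 T and NK cell and 8 of 12 myeloid and dendritic marker genes. The stronger of the 2 open peaks at Nr3c1 had 59.3 to 68.5 CPM in cKO Dex, 55.8 to 60.7 CPM in cKO control, 65.6 to 75.8 CPM in WT Dex and 60.7 to 71.4 CPM in WT control libraries. The receptor gene was thus accessible in all 4 groups, and peak counts do not check its deletion.

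The sequences that these data bear on are promoters that overlap a strengthened peak. Promoter windows of RefSeq (build GRCm38.p6, from 250 bases before to 50 after a gene's start) overlapped 13 strengthened peaks, in 14 windows. The following 5, each wholly inside its peak, are shown because they belong to the peaks beside Klf9 and Mchr1, which gained much under Dex, and to the immune or signalling genes Gimap3, Arap2 and Il12rb2. Capitals mark the glucocorticoid receptor hexamer AGAACA or its reverse complement TGTTCT, and the AP-1 motif TGACTCA.
2410080I02Rik, in the Klf9 peak, chr19:23134248-23134547, plus strand: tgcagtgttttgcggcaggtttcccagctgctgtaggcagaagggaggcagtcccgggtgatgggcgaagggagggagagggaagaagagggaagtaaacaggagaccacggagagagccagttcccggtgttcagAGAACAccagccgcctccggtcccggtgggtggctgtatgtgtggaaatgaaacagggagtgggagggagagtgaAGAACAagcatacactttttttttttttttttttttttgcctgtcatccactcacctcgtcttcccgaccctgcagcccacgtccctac
8430426J06Rik, in the Mchr1 peak, chr15:81247922-81248221, minus strand: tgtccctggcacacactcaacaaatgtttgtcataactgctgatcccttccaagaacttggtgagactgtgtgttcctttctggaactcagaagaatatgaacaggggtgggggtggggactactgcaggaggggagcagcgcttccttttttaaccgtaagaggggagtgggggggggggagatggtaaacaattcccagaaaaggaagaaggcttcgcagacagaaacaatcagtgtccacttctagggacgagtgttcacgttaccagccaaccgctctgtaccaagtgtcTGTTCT
Gimap3, chr6:48770802-48771101, minus strand: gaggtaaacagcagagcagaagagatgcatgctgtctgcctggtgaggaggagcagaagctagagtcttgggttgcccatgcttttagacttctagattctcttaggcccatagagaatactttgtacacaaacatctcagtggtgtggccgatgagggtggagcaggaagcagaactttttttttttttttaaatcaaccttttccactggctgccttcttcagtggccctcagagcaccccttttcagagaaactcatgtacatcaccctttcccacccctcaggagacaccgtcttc
Arap2, chr5:62766128-62766427, minus strand: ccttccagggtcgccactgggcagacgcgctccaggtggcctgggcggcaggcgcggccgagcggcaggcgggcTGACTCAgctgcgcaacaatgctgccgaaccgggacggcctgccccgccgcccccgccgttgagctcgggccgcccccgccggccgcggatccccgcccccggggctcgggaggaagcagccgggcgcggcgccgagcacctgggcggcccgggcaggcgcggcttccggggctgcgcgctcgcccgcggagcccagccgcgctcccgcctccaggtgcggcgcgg
Il12rb2, chr6:67376139-67376438, minus strand: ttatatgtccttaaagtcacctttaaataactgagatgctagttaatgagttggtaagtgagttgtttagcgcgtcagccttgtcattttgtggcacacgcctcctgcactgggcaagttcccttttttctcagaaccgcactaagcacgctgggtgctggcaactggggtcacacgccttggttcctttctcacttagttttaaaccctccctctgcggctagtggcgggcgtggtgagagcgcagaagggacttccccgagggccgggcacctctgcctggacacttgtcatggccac

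Both strands of each window were searched. The hexamer (AGAACA or TGTTCT) was present in 2 of the 14 windows (14.3%), against 18.97% of all 32851 windows and 11.8% of the 12849 windows in other open peaks. These 2 were the start of 2410080I02Rik in the Klf9 peak, with 2 copies, and the start of 8430426J06Rik in the Mchr1 peak, with 1. The full palindrome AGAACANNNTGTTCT, which holds a hexamer on each side, was in 0 of the 14 windows and in 0.00913% of all windows. The AP-1 motif (TGACTCA or TGAGTCA) was in 1 of the 14, at Arap2, against 5.20% of all windows and 3.88% of those in other open peaks. A match describes the letters of a window and no more. The genome sequence of peaks outside these windows was not examined.

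As a group, the 263 peaks held more counts in every WT Dex library than in any WT control library, as the rule requires. Their summed accessibility was 6061, 5902 and 5847 CPM in the WT Dex libraries, against 3269, 3341 and 3425 CPM in the WT control libraries. In cKO cells it was 4095, 4251 and 4077 CPM with Dex, against 3568, 3727 and 3680 CPM without. The cKO Dex libraries thus lay above the cKO control libraries and below all WT Dex libraries. The means were 5936 ± 111 CPM in WT Dex, 3345 ± 78.2 in WT control, 4141 ± 95.7 in cKO Dex and 3658 ± 81.6 CPM in cKO control libraries (SD, n = 3 each), so the ratio of Dex to control was 1.13 in cKO and 1.77 in WT. All other open peaks together had overlapping sums with and without Dex in both genotypes. ATAC-seq on bulk cells cannot tell apart a larger share of cells with an open site and a more open site per cell.

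**Figure D1:**
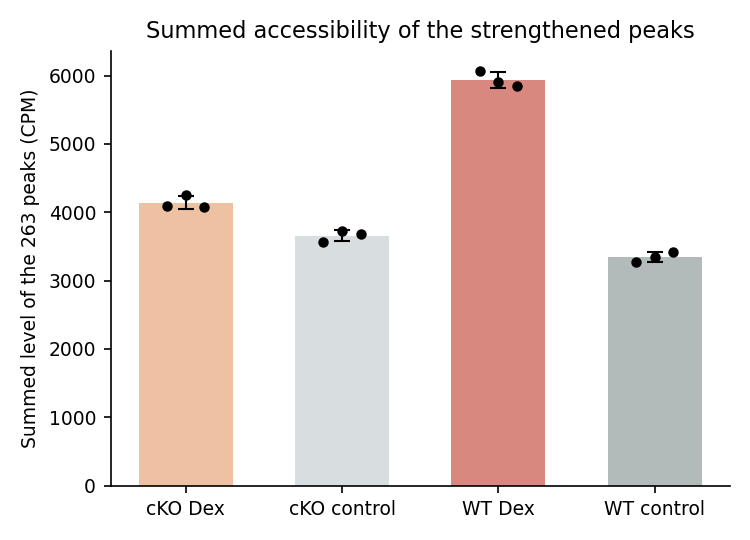
Summed accessibility (CPM, from 0) of the 263 strengthened peaks in each of the 12 libraries, by group, with points for libraries, bars for group means and error bars for the SD (n = 3). The cKO Dex libraries lay between 4077 and 4251 CPM, above the cKO control libraries at 3568 to 3727 CPM and below the WT Dex libraries at 5847 to 6061 CPM.

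The median peak was 1.64 times more open in WT Dex than in WT control libraries, 42 peaks reached 2-fold and 9 reached 3-fold, with a highest value of 3.74. On the log2 scale of the fit the median Dex effect in WT was 0.76, with an interquartile range of 0.68 to 0.92. In that fit 257 of the 263 peaks were called higher in WT, where 0.42% of all tested peaks were, but the same libraries chose them. At the lower edge of the rule, the peaks at Xpr1, Cacng6 and Tacc1 were kept at folds of 1.501, 1.501 and 1.501, while those at Spred2 and Mrap at 1.4997 were not. By level, the peaks at Ildr1 and Anxa4 were kept at a WT control mean of 5.09 and 5.11 CPM, and those at Il1r1 and Zfp638 fell outside at 4.95 and 4.93 CPM.

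In cKO cells, most strengthened peaks leaned the same way by a much smaller amount, and 1 was called. This was the peak 22813 bases outside Cxcr4, the receptor for the chemokine CXCL12 that retains lymphocytes in bone marrow. Called means an adjusted p under 0.05 in edgeR's quasi-likelihood test with Benjamini-Hochberg adjustment over the 202587 tested peaks, all 263 among them. In all, 6 tested peaks were called for Dex in cKO, each higher (0.00296%). The number of strengthened peaks called was 5 of 10 tested peaks called with DESeq2, and 2 of 7 with the replicate number as a block in edgeR. It was 0 of 1 without cKO control replicate 1 and 0 of 2 without cKO Dex replicate 2. Without cKO Dex replicate 3 it was 11 of 314, and 273 of those 314 were lower. At an unadjusted p under 0.05, 100 strengthened peaks were higher in cKO Dex and 1 was lower, where 2.61% of all tested peaks were higher, 3.23% lower and 5.84% either. The log2 effect in cKO was positive at 249 of 263 peaks (94.7%), against 49.4% of tested peaks and 75.8% of the 41332 other open peaks.

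The median Dex effect in cKO was 0.23 on the log2 scale, or 1.18-fold, with an interquartile range of 0.13 to 0.32. The same median was 0.08 over the other open peaks and -0.0044 over all tested peaks. All 3 cKO Dex libraries lay above all 3 cKO control libraries at 78 strengthened peaks (29.7%), against 4.29% of tested and 8.18% of other open peaks. They lay below at 1 (6.57% of tested peaks). With the share of counts in the strongest peaks of each library as a covariate, the median was 0.16 at strengthened peaks and -0.00089 at other open peaks. With loess offsets it was 0.15 and 0.00031, and the share of positive effects was 85.9% at strengthened and 50.1% at other open peaks. A Dex to control ratio of CPM means of at least 1.5 in cKO occurred at 6 strengthened peaks (2.28%) and at 8 other open peaks (0.0194%).

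**Figure D2:**
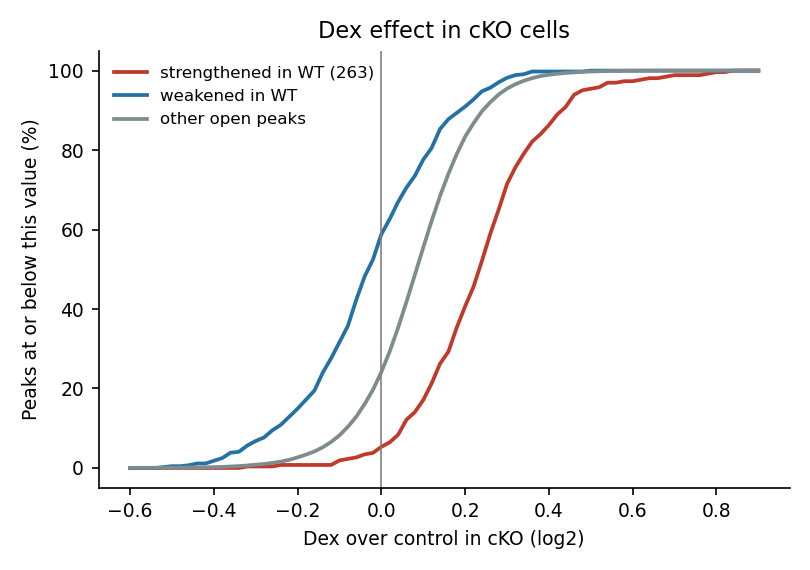
Cumulative share (percent) of peaks by their log2 Dex effect in cKO cells, for strengthened peaks, peaks weakened in WT by the mirrored rule, and other open peaks. The curve of the 263 strengthened peaks lies to the right, with a median of 0.23, against 0.08 for other open peaks and -0.03 for the 442 weakened peaks.

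The effect in cKO was smaller than that in WT at 263 of 263 peaks, and the median difference was -0.59, cKO minus WT, on the log2 scale. Since the WT effect was chosen to be large, this difference is given without a test. Taking the difference of means, the Dex gain in cKO had a median of 19.4% of the gain in WT at the same peak. Under Dex, all cKO libraries lay below all WT libraries at 215 peaks, as at 4.93% of tested and 11.2% of other open peaks. Without Dex, all cKO libraries lay above all WT libraries at 64 peaks (9.4% of tested and 5.16% of other open peaks) and below at 5 (4.79% of tested and 12.5% of other open peaks). The rule selected on the WT values in both of these comparisons, so nothing is read from the counts.

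Peaks that gained most in WT also had the larger effects in cKO. The median cKO effect was 0.19 at the 97 peaks with a WT fold of 1.5 to 1.6, 0.22 and 0.25 in the lower and upper part of the range of 1.6 to 2 (76 and 48 peaks), and 0.30 at the 28 peaks up to 2.5. It was 0.52 at the 14 peaks of at least 2.5-fold, where all 14 effects were positive and cKO Dex lay above cKO control without overlap at 12. Across the 263 peaks the WT and cKO effects had a Pearson's r of 0.501 and a Spearman's rho of 0.35, against a Pearson's r of 0.213 across other open peaks. These are correlations across peaks, which share libraries and are not replicates.

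By level in WT control cells, the median cKO effect was 0.21 at the 83 peaks of 5 to 7.5 CPM, 0.24 at the 60 up to 10 CPM, 0.25 at the 80 up to 20 CPM and 0.23 at the 40 above. The other open peaks of the same levels had medians of 0.07, 0.08, 0.09 and 0.09. Among 1158 weaker peaks, of 1 to under 5 CPM, that met the same fold and overlap conditions in WT, the median cKO effect was 0.14 and 70.6% were positive.

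**Figure D3:**
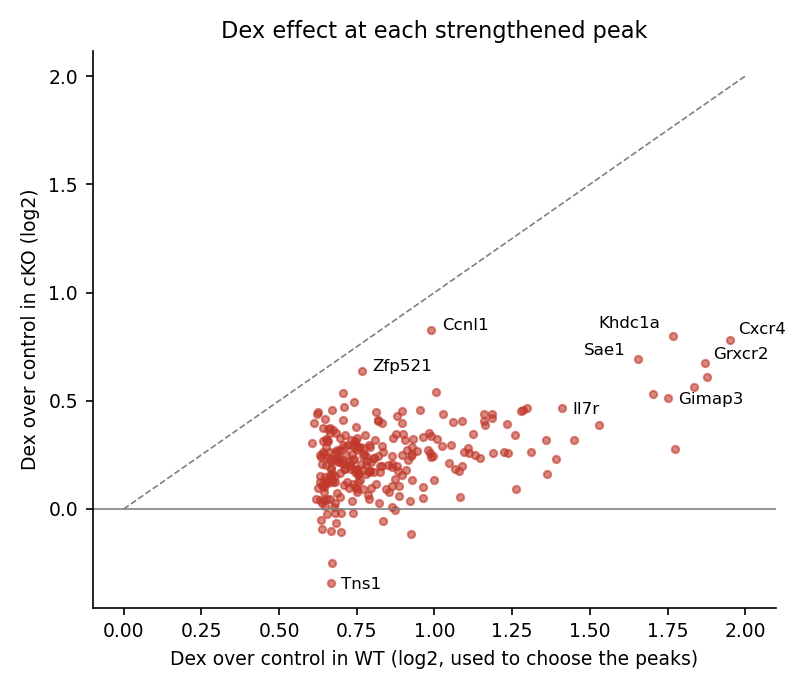
Log2 Dex effect in cKO (vertical axis) against the log2 Dex effect in WT (horizontal axis) for each of the 263 strengthened peaks, with a dashed line of equality and a solid line at 0. Every peak lies below the line of equality and 249 lie above 0, with Ccnl1 at 0.83 the highest in cKO and Tns1 at -0.34 the lowest.

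The Cxcr4 peak (chr1:128614316-128615908, build mm10) had 56.0, 53.3 and 59.2 CPM in WT Dex libraries, against 14.5, 14.3 and 16.3 CPM in WT control libraries. It had 22.2, 26.5 and 23.3 CPM in cKO Dex libraries, against 13.7, 13.4 and 16.7 CPM in cKO control libraries. Groups with and without Dex did not overlap in either genotype, and the cKO and WT libraries without Dex overlapped. Its effect in cKO was 0.78 ± 0.12 (log2, SE, n = 3 each), with an adjusted p of 0.000697 by edgeR. That call was lost without cKO control replicate 1 (log2 0.72, adjusted p 0.0737 by edgeR) and without cKO Dex replicate 2 (0.67, adjusted p 0.0593 by edgeR), with adjusted p between 4.17e-06 and 0.0737 over 15 alternatives. The 9 open peaks at Cxcr4 had WT folds between 0.752 and 3.74, and only this one met the rule.

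Several other peaks with a high WT fold had larger cKO effects than the median of the group. None of those described next was called by edgeR with all libraries, no block and no covariate. The peak on chromosome 10 at 21676448, with no protein-coding gene within 50 kb, had 22.1, 21.6 and 19.4 CPM in the WT Dex libraries, against 4.70, 6.91 and 5.90 CPM in WT control libraries. In cKO it had 13.9, 13.4 and 13.1 CPM with Dex, against 11.1, 8.68 and 7.70 CPM without. Here cKO libraries without Dex were already above all WT libraries without Dex, and those with Dex were higher still without overlap, with an effect of 0.61 ± 0.14 (adjusted p = 0.462, edgeR). The peak within Sae1, a subunit of the enzyme that activates SUMO, was 3.08 times higher in WT Dex and had an effect in cKO of 0.69 ± 0.14 (adjusted p = 0.149, edgeR). It was called by edgeR with the replicate number as a block (adjusted p = 0.0391) or with the share of counts in the strongest peaks as a covariate (adjusted p = 0.0124), and by DESeq2 (adjusted p = 0.0151). The peak within Ppp1r21 had 38.5, 38.7 and 39.5 CPM in the WT Dex libraries, against 11.3, 11.5 and 11.02 CPM in WT control libraries, and 16.2, 16.2 and 14.8 CPM in cKO Dex, against 10.4, 10.3 and 12.6 CPM in cKO control libraries. Both pairs were free of overlap at Ppp1r21, and the cKO effect of 0.56 missed the threshold by edgeR (adjusted p = 0.287) but not by DESeq2 (adjusted p = 0.0482).

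The gene nearest to a peak need not be one it acts on. The peaks assigned to Grxcr2, a gene of hair cell stereocilia, Khdc1a, and Mchr1, a receptor for melanin-concentrating hormone, had WT folds of 3.57, 3.33 and 3.16. Their effects in cKO were 0.67, 0.80 and 0.53 and missed the threshold (adjusted p = 0.272, 0.268 and 0.362, edgeR), whereas DESeq2 called Grxcr2 (adjusted p = 0.0482). The Mchr1 peak lay 272 bases from the start of the transcript 8430426J06Rik, whose window is printed above. It had 37.5, 34.0 and 35.9 CPM in the WT Dex libraries, against 10.7, 11.2 and 12.1 CPM in WT control, and 16.5, 17.5 and 16.5 CPM in cKO Dex, against 12.1, 12.3 and 11.8 CPM in cKO control libraries. The cKO Dex libraries were above all cKO control libraries there, at less than the level of any WT Dex library.

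Of 30 genes known as targets of the glucocorticoid receptor, 27 had open peaks, 160 in all, and 5 of these peaks (3.13%) were strengthened, at Cxcr4, Il7r, Klf13, Klf9 and Txnip. Of these 5, 1 passed the test in cKO, higher, and none passed lower. Over all open peaks the strengthened share was 0.632%, which also applies to the lists below. The lists were chosen with earlier results of these data known, so their shares are descriptions and no excess is read from them. The list median of the Dex effect over the 160 open peaks was 0.08 in cKO and 0.10 in WT, near the 0.08 and 0.05 of open peaks that were not strengthened. Classical targets such as Fkbp5, a chaperone that restrains the receptor, Per1, a clock gene, Tsc22d3, which encodes GILZ, and the kinase gene Sgk1 had 8, 3, 3 and 12 open peaks and no strengthened one assigned to them. Each peak was assigned to 1 gene at most, within 50 kb, so strengthened peaks farther off or nearer another gene were not counted. A gene such as Sgk1, with no strengthened peak assigned, can therefore still have one farther off. The peak on chromosome 10 at 21676448, for instance, lay 205251 bases from the nearest protein-coding gene and was assigned to none.

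Klf9 encodes a zinc finger transcription factor. Its peak (chr19:23133843-23136594), 6008 bases outside the gene, had 77.8, 72.9 and 66.0 CPM in WT Dex libraries, against 34.0, 31.5 and 31.3 CPM in WT control libraries. In cKO it had 38.5, 35.2 and 33.8 CPM with Dex, against 33.2, 28.9 and 31.0 CPM without. The cKO pair did not overlap, by a small margin, and the effect of 0.26 ± 0.11 missed the threshold (adjusted p = 0.838, edgeR). This peak holds the start of 2410080I02Rik, with the pair of hexamers printed above.

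Il7r encodes the receptor chain for interleukin 7, a survival cytokine of T cells. Its peak had 16.4, 15.5 and 17.6 CPM in the WT Dex libraries, against 7.31, 6.15 and 5.98 CPM in WT control libraries, and 8.53, 9.06 and 9.54 CPM in cKO Dex, against 5.63, 7.37 and 7.23 CPM in cKO control libraries. Txnip encodes an inhibitor of thioredoxin that also restrains glucose uptake. Its peak had 25.1, 21.3 and 21.3 CPM in the WT Dex libraries, against 9.01, 10.4 and 11.2 CPM in WT control, and 12.1, 13.2 and 11.6 CPM in cKO Dex, against 7.87, 11.3 and 8.85 CPM in cKO control libraries. At both genes the cKO pair was free of overlap, with effects of 0.47 and 0.44 that missed the threshold (adjusted p = 0.837 for both, edgeR).

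Among 16 cell death genes, 5 of 114 open peaks (4.39%) were strengthened, at Bcl2l11, Bcl2, Dthd1 and, with a pair of peaks, Cradd, and none was called in cKO in either direction. Bcl2l11 encodes BIM, which triggers apoptosis of lymphocytes, whereas Bcl2 opposes it, and Cradd encodes an adaptor with a death domain. The Bcl2l11 peak, within the gene, had 19.7, 15.9 and 22.4 CPM in the WT Dex libraries, against 7.78, 9.22 and 8.25 CPM in WT control libraries. It had 8.73, 12.9 and 11.8 CPM in cKO Dex, against 9.73, 9.30 and 10.0 CPM in cKO control libraries. The cKO pair overlapped, with 1 cKO Dex library below all cKO control libraries. The Bcl2 and Dthd1 peaks had WT folds of 1.54 and 1.71 and cKO effects of 0.16 and 0.26.

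Of 20 core Th17 genes, 19 had 180 open peaks, of which 5 (2.78%) were strengthened, and none was called in cKO. They lay at Hif1a (a pair of peaks), Il21, Sox5 and Tmem176b. Hif1a encodes a hypoxia-response factor that favours Th17 differentiation. Its stronger-gaining peak had 17.7, 13.6 and 15.8 CPM in the WT Dex libraries, against 9.39, 6.15 and 7.81 CPM in WT control libraries, and 9.49, 8.77 and 10.4 CPM in cKO Dex, against 9.41, 9.41 and 9.73 CPM in cKO control libraries. The cKO libraries overlapped, with an effect of 0.05 ± 0.15 that turned to -0.02 with loess offsets. The peak near Il21, a Th17 cytokine, had a WT fold of 1.57 and a cKO effect of 0.06, which also turned negative with loess offsets (-0.03).

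The homeostatic Th17 genes contributed 1 of 49 open peaks, within Il10, the gene of an anti-inflammatory cytokine. It had 23.5, 20.9 and 24.4 CPM in the WT Dex libraries, against 13.6, 14.4 and 17.2 CPM in WT control, and 16.2, 16.4 and 15.5 CPM in cKO Dex, against 15.0, 16.5 and 14.5 CPM in cKO control libraries. WT Dex libraries stood above all others, and the cKO pair overlapped. The inflammatory Th17 list had 2 of 81, at Icos, a costimulatory receptor, and Lag3, an inhibitory one. The list of other helper fates had 2 of 92, at Ctla4, an inhibitory receptor, and Il12rb2, the interleukin 12 receptor chain of Th1 cells. None of these passed in cKO.

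The naive and memory list had 3 of 235 open peaks, at Foxp1, a factor of T cell quiescence, Il7r and S1pr1, the receptor for egress from lymph nodes. The Foxp1 peak was 1 of 50 open peaks at that gene, with a WT fold of 1.59 and a cKO effect of 0.13. S1pr1 had a WT fold of 1.69 and a cKO effect of 0.03, negative with total counts (-0.02). NF-kB genes had 1 of 80, at Nfkbiz, which encodes an atypical regulator of NF-kB. Strengthened peaks on chromosome 16 at 55582485 and 55698367 had WT folds of 3.34 and 1.52. They lay 228413 and 112676 bases from Nfkbiz, beyond the 50 kb limit, and were assigned to no gene. Co-inhibitory receptors had 2 of 79 (Ctla4 and Lag3), migration genes 2 of 81 (Cxcr4 and S1pr1), metabolic genes 1 of 95 (Txnip), and T cell identity genes 1 of 67 (Cd2). No strengthened peak fell to the lists of activation and AP-1 (125 open peaks), cytokine receptors and JAK-STAT (137), TGF-b (95) or clock genes (68). In all, 24 of the 263 peaks lay at 22 of the 269 listed genes, and of these only Cxcr4 was called in cKO.

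**Figure D4:**
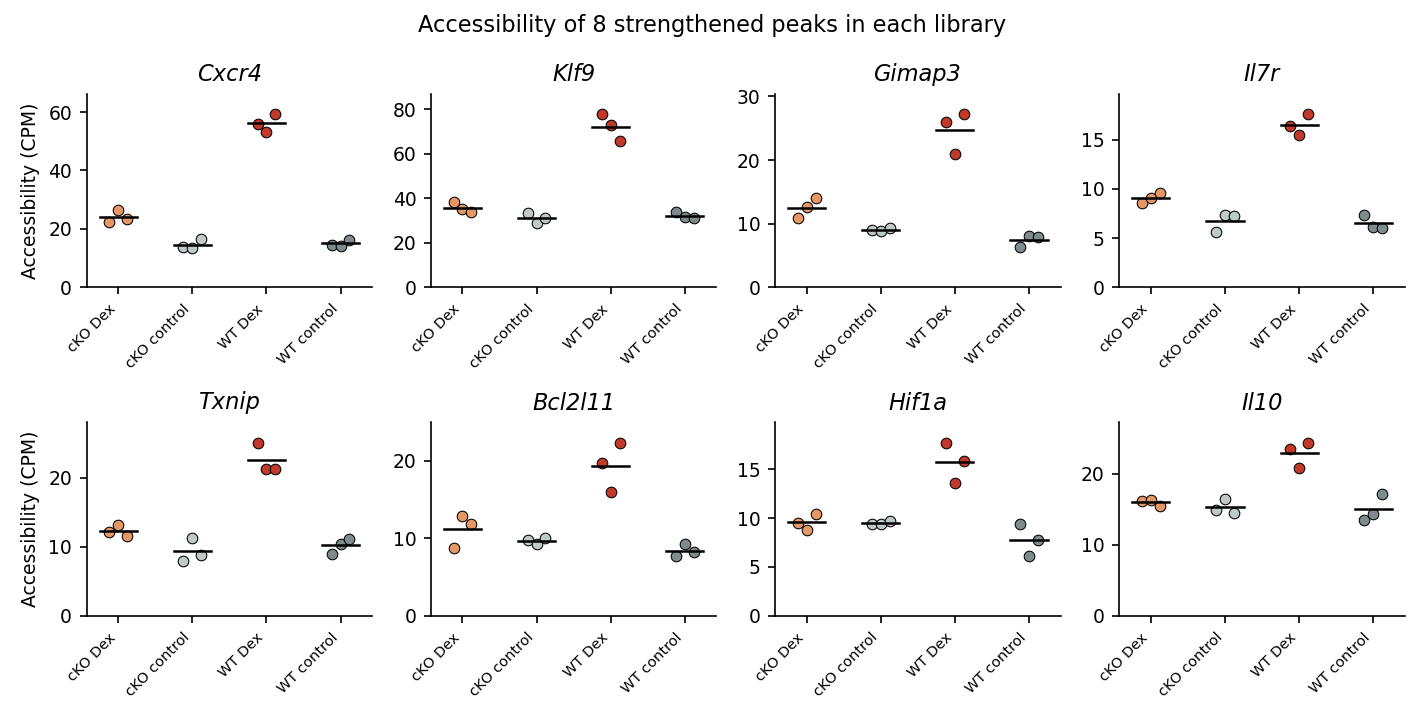
Accessibility (CPM, from 0) of 8 strengthened peaks in each library, with points for libraries and a line for each group's mean, named by the nearest gene. WT Dex libraries are highest in each panel, and cKO Dex libraries lie above all cKO control libraries at Cxcr4, Klf9, Gimap3, Il7r and Txnip. The 8 were picked by hand and do not show how common this is. Such separation in cKO occurred at 78 of the 263 peaks (29.7%), against 8.18% of other open and 4.29% of tested peaks.

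Some strengthened peaks lay close together. Joined at a distance of up to 50 kb, 45 of the 263 formed 21 groups, 3 of them of 3 peaks and 18 of 2, and 218 stood alone. The group of 3 on chromosome 6 spanned 35597 bases between 48768304 and 48803900, at Gimap3, one of the GTPases of immunity-associated proteins that act in lymphocyte survival, and Tmem176b, a transmembrane protein expressed in Th17 cells. The Gimap3 peak with the larger gain had 25.9, 20.9 and 27.2 CPM in the WT Dex libraries, against 6.39, 8.14 and 7.93 CPM in WT control, and 10.9, 12.7 and 14.0 CPM in cKO Dex, against 9.03, 8.78 and 9.39 CPM in cKO control libraries. The Tmem176b peak had 22.6, 17.7 and 20.5 CPM in the WT Dex libraries, against 5.93, 6.43 and 9.07 CPM in WT control, and 9.29, 9.35 and 9.76 CPM in cKO Dex, against 6.85, 8.10 and 7.43 CPM in cKO control libraries. Both had cKO pairs free of overlap, with effects of 0.51 and 0.39 (adjusted p = 0.678 and 0.838, edgeR). The third peak of the group, which holds the Gimap3 start printed above, was stronger without Dex and gained less, with a WT fold of 1.58 and a cKO effect of 0.21.

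A second group of 3 lay within 12687 bases at Fam107b on chromosome 2, with WT folds of 1.66 to 1.83 and cKO effects of 0.24 to 0.29. One of its peaks was the strongest of all 263 in WT control cells, with 126, 120 and 119 CPM in the WT Dex libraries, against 72.0, 62.2 and 65.5 CPM in WT control, and 74.2, 74.2 and 72.4 CPM in cKO Dex, against 62.5, 63.9 and 61.4 CPM in cKO control libraries. Both pairs were free of overlap there, and the cKO effect was 0.29 ± 0.09 (adjusted p = 0.837, edgeR). The group of 3 at Neb, which encodes the muscle protein nebulin, spanned 6218 bases, with WT folds of 1.65 to 2.07 and cKO effects of -0.11 to 0.27. Another strong peak, on chromosome 17 at 84115758 and 67251 bases from the nearest protein-coding gene, had 94.8, 98.9 and 92.0 CPM in the WT Dex libraries, against 41.3, 44.0 and 38.6 CPM in WT control, and 44.1, 48.1 and 44.9 CPM in cKO Dex, against 34.4, 40.9 and 36.8 CPM in cKO control libraries. Its cKO effect was 0.34 (adjusted p = 0.782, edgeR), again without overlap.

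The effects in cKO were not ordered by those in WT alone. The largest in cKO was at a peak 20636 bases outside Ccnl1, the gene of cyclin L1, with 7.81, 9.47 and 6.79 CPM in cKO Dex, against 3.71, 5.80 and 4.53 CPM in cKO control libraries, an effect of 0.83 (adjusted p = 0.280, edgeR) beside a WT fold of 1.92. A second Ccnl1 peak, 23276 bases outside the gene, had a cKO effect of 0.04. At Zfp521, a zinc finger gene, the cKO effect of 0.64 (adjusted p = 0.272 by edgeR and 0.0271 by DESeq2) stood beside a WT fold of 1.64. Negative effects in cKO were seen at 14 peaks, the lowest at Tns1, the gene of the focal adhesion protein tensin, with -0.34, and next at Ripor3 with -0.25. Neither passed the test (adjusted p = 0.851 and 0.889, edgeR).

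Strengthened peaks were seldom at the gene starts of the promoter windows used. These windows lack the starts of some genes, so distances can be too long and counts near starts too low. The strengthened peaks within Il10 and Ppp2cb, for example, lay 59518 and 511143 bases from the nearest start listed. The median distance to the nearest start was 23056 bases, against 11126.5 bases for other open peaks and 16305 bases for all tested peaks, over peaks outside chromosome 18. Within 1 kb of a start lay 13 of 259 strengthened peaks (5.02%), against 24.1% of other open peaks and 8.58% of tested peaks. Beyond 50 kb lay 68 (26.3%), against 16.5% and 20.5%. The contrast was thus smaller against all tested peaks than against other open peaks. The sets were not matched for level. In WT control libraries the median level was 9.46 CPM for strengthened peaks and 12.3 CPM for other open peaks. The strengthened peaks were within a protein-coding gene in 137 cases (52.1%), against 62.3% of other open peaks, and 31 (11.8%) had no protein-coding gene within 50 kb, against 7.84%. Their median width was 977 bases, against 1000 bases. They lay on 20 chromosomes, with 29 on chromosome 1, 23 on chromosome 15 and 6 on chromosome 4. These were 1.05%, 1.18% and 0.236% of the open peaks there, against 0.632% over all chromosomes. These shares describe the peaks and were not tested.

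**Figure D5:**
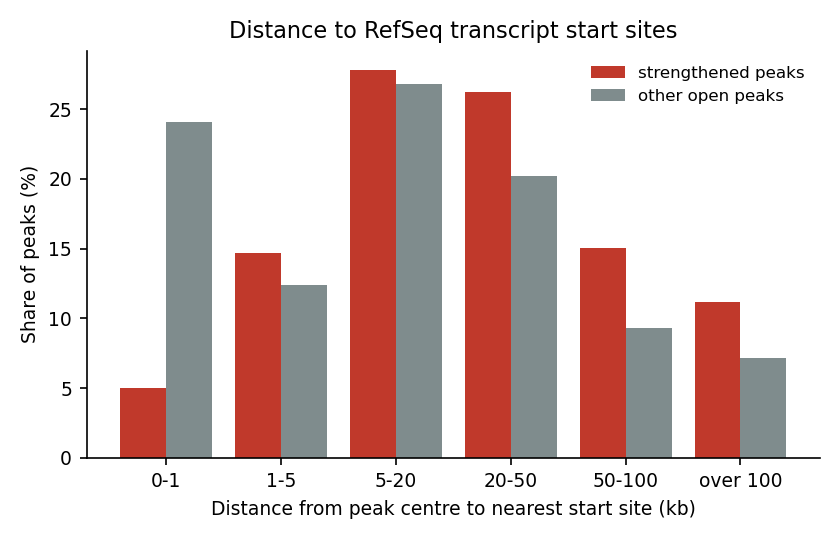
Share of peaks (percent, from 0) by distance to the nearest RefSeq start (kb), for the 259 strengthened peaks and the other open peaks outside chromosome 18. The set of starts lacks those of some genes. In the range under 1 kb lie 5.02% of strengthened and 24.1% of other open peaks, and beyond 100 kb lie 11.2% and 7.18%.

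Open peaks beside a strengthened one that did not themselves meet the rule had smaller median effects. The 184 such peaks within 5 kb had a median Dex effect of 0.12 in cKO and 0.21 in WT, the 457 at 5 to 20 kb had 0.10 and 0.13, and the 743 at 20 to 50 kb had 0.09 and 0.10. The 39948 farther away had 0.08 in cKO and 0.05 in WT. The median thus fell with distance in WT by a larger amount than in cKO, a description with no test.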

How the data were processed

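The authors deposited 1 table of counts per peak for 12 libraries, in whole numbers and without normalisation per the file headers. The submitters' processing notes name featureCounts 2.1.1, Genrich 0.6.1, deepTools 3.5.6, SAMtools 1.3, Picard 2.18.27, Bowtie2 2.3.5 and Trimmomatic 0.39, and build mm10. Their settings, the treatment of multiply mapped reads and whether peaks were called on pooled libraries were not given in the sources used here. A joint call that includes Dex libraries can favour sites open in them.

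CPM was computed from column totals. edgeR 4.0.16 under R 4.3.3 filtered peaks with filterByExpr (minimum count 10, minimum total 15), which kept 202587 peaks, scaled by TMM and fitted all 12 libraries with 1 coefficient per group (8 residual degrees of freedom, robust quasi-likelihood F-test, two-sided, Benjamini-Hochberg over all tested peaks). The steps were tested on simulated data with changes of 1.5-fold and 2-fold planted in cKO Dex libraries. Changes as small as the median of the strengthened peaks in cKO were not simulated. The median biological coefficient of variation was 24.8%. Libraries of 1 group differed from each other by more than counting error (chi-square over its degrees of freedom, 2.06 to 3.70), so none was counted as a duplicate. The labels do not say that the libraries of a group are separate animals or cultures. The p-values then cover only the spread among these libraries, which may be technical, and PCR copies are not independent molecules.

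Alternatives were DESeq2 1.42.0, limma-voom (limma 3.58.1), other scalings, no filter, cKO libraries alone, a replicate block, a covariate, each library left out, and other thresholds of the rule. The members and gene lists were chosen with earlier results of these data known. Peaks were assigned to the protein-coding RefSeq gene (GRCm38.p6) that holds their centre or else the nearest within 50 kb. The peaks named were the 12 with the largest WT fold, the 8 strongest in WT control, those with the lowest cKO p and the largest and smallest cKO effects, those at listed genes, at genes with 3 or more members, and at the edges of the rule. The second Ccnl1 peak and the Klf13 peak were named after their values were seen.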

Additional observations from a re-analysis of the deposited data

Results flagged for a closer look

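At the peak within Tns1 (chr1:73997807-73999605), all 3 WT Dex libraries lay above all WT control libraries, whereas all 3 cKO Dex libraries lay below all cKO control libraries. The rule required the WT order. The cKO order occurred at 1 of the 263 strengthened peaks (0.380%), against 6.57% of tested and 3.32% of other open peaks. Accessibility at Tns1 was 8.13, 7.48 and 9.12 CPM in the WT Dex libraries, against 4.93, 6.34 and 4.76 CPM in WT control libraries. It was 6.42, 4.94 and 6.96 CPM in cKO Dex, against 7.94, 7.74 and 8.25 CPM in cKO control libraries. The log2 Dex effect was -0.34 ± 0.16 in cKO (SE, adjusted p = 0.851 by edgeR) and 0.67 in WT. The difference between these effects was not tested, since the WT effect chose the peak.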

How the results depend on the processing

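The SE of the cKO effect at single members ran between 0.09 and 0.18 on the log2 scale, which limits what 3 libraries a group can show at 1 peak. Of 840 values of 56 named peaks under 15 alternatives, 797 kept direction and side of the threshold, 28 changed sign, 13 became called and 2 lost a call, both at Cxcr4. The causes were not tested. The number of members called in cKO was 5 of 10 tested peaks called with DESeq2 (Cxcr4, Sae1, Zfp521, Grxcr2 and Ppp1r21). It was 2 of 6 with the share of counts in the strongest peaks as a covariate and 3 of 6 with a level of 2 CPM. Leaving out 1 library gave 0 to 11 members called. There were 0 without cKO control replicate 1 or cKO Dex replicate 2, where 1 and 2 tested peaks were called. There were 11 without cKO Dex replicate 3, where 314 tested peaks were called, against 6 with all libraries. The median cKO effect was 0.18 with total counts, 0.15 with loess offsets, 0.16 with the covariate, 0.37 at a fold threshold of 2, 0.16 at the lower fold threshold tried and 0.18 to 0.29 without 1 library. The share of positive effects was 89.0%, 85.9% and 85.2% with total counts, loess offsets and the covariate, 100% and 89.3% at the higher and lower fold thresholds, 97.5% and 84.9% at levels of 10 and 2 CPM, 92.4% with CPM from TMM-scaled sizes and 89.4 to 95.8% without 1 library. The number of members was 42 and 1304 at the higher and lower fold thresholds, 120 and 704 at levels of 10 and 2 CPM, 356 with TMM-scaled sizes, and 247 to 320 without 1 WT library. Over the other open peaks the median was 0.00031 with loess offsets and -0.00089 with the covariate. Members exceeded other open peaks by 0.13 to 0.16 in the median under all scalings and tools run. The sign turned with loess offsets at Hif1a (-0.0216), Il12rb2 (-0.00403), Il21 (-0.0251), Ildr1 (-0.0286), Nfkbiz (-0.000718) and S1pr1 (-0.0459). It turned with the covariate at Il12rb2 (-0.000909), Il21 (-0.133), Nfkbiz (-0.133) and S1pr1 (-0.0285), with total counts at Ildr1 (-0.0159) and S1pr1 (-0.0233), and with DESeq2 size factors and DESeq2 at Anxa4 (0.00638 and 0.0055). Without 1 library the ranges were -0.109 to 0.114 at Anxa4, -0.0720 to 0.207 at Il12rb2, -0.0971 to 0.199 at Il21, -0.0617 to 0.137 at Ildr1, -0.279 to 0.0326 at Itgb6, -0.0776 to 0.0893 at Lag3, -0.0612 to 0.302 at Nfkbiz and -0.0258 to 0.0835 at S1pr1. With the replicate number as a block, 7 tested peaks were called, 2 of them members (Cxcr4 and Sae1). The member median was then 0.23, with 94.7% positive. Same-numbered cKO libraries with and without Dex correlated in their deviations at 0.173, 0.252 and 0.0774, so 1 of the 3 pairs of the groups tested was under 0.1 and the block was kept as an alternative. The same-numbered Dex libraries of cKO and WT correlated at 0.173, 0.176 and 0.158, and 6 of 6 cKO libraries correlated best with their own number in the other cKO group, a hint from the data and not from the design.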
